A study of Mus musculus with 18 samples.

Results

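The mitochondrial ribosomal protein genes, whose symbols begin with Mrpl or Mrps followed by a number, were described in B cells stimulated through TLR9 or TLR7. The symbols picked out 76 of the 23420 genes in the deposited tables, 47 named Mrpl for the large subunit of the mitochondrial ribosome and 29 named Mrps for the small subunit. All 76 passed the filter on low values in both models described here, and their values ran from 1.87 to 7.22 log2 CPM, a gene's counts scaled to a common library total and given on the log2 scale.

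The mitochondrial ribosome, or mitoribosome, translates the few proteins that mitochondrial DNA still encodes, which are core subunits of the respiratory chain and the ATP synthase. Its RNAs are made inside the organelle, whereas its proteins are encoded in the nucleus, translated in the cytosol and imported. Some of these proteins descend from bacterial ribosomal proteins, and others are found only in mitochondria. When a resting lymphocyte is activated it enlarges and builds up its mitochondria before it divides, and a growing cell needs new mitochondrial as well as cytosolic ribosomes.

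RNA with a polyA tail was sequenced from B cells that had been purified with beads from the spleens of lupus-prone MRL/lpr (MRL.Faslpr) mice and cultured for 4 h. The question was what the intracellular TIR signaling domain of TLR7 or TLR9 contributes when it is exchanged between the receptors. Tlr997 is a TLR9 whose TIR domain is that of TLR7, Tlr779 is a TLR7 whose TIR domain is that of TLR9, and both were made by germline CRISPR knock-in, so that every cell of the mouse carries them. There were 6 groups of 3 libraries. Tlr9het B cells, titled as carrying 1 functional Tlr9 allele (Tlr9+/-), and Tlr997 B cells came from females that also lacked Tlr7 (Tlr7-/-), and were left unstimulated or given the TLR9 agonist CpG at 10 µg/ml. Tlr779 B cells came from males labelled as lacking Tlr9 (Tlr9-/-), and were left unstimulated or given the TLR7 agonist CL097 at 5 µg/ml. The mice were 5 to 7 weeks old, and the Tlr7-/- mice gave 4M and the Tlr779 mice 5M cells a culture, at 10M per ml. Sex, genotype and agonist all differ between the Tlr7-/- and the Tlr779 mice and cannot be told apart, so no test was made between them, and the Tlr7WT Tlr9-/- controls of Tlr779 were not analysed here. The treatment text calls the Tlr9het mice Tlr9-/-, against their titles, and the titles were followed. Nothing says whether a replicate number marks a mouse, so the p-values measure the spread between these samples.

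Replicate libraries correlated at 0.947 to 0.99 over 11494 genes, and both of the lowest values, 0.947 and 0.955, involved replicate 3 of unstimulated Tlr997, which stood apart. Leaving it out lowered the CpG response of 46 of the 76 genes in Tlr997 and moved 8 of them by more than 0.2 log2 units (changes -0.36 to 0.20 over all 76), and where this response of a named member or listed gene moved by that much, the value without the library is given too. Among the Tlr7-/- libraries, Tlr7 was at 2.68 to 4.28 log2 CPM in Tlr9het and at 4.81 to 5.36 in Tlr997, against 6.61 to 7.82 in the Tlr779 libraries. Tlr9 was at 6.93 to 8.08 in all 18. In the Tlr779 libraries, labelled Tlr9-/-, Tlr9 was at 6.93 to 7.47, beside 7.02 to 7.56 in Tlr997, so its gene total shows no loss of Tlr9 and goes against that label taken alone. A gene total holds reads of either end of a receptor. Tlr779 carries the TIR domain of TLR9 and Tlr997 that of TLR7, so these values check neither the deletion nor the chimeras. The B cell markers Cd79a, Cd79b, Ms4a1, Cd22, Pax5, Blk and Cr2 summed to 5420 to 7030 CPM in the unstimulated libraries, against 1.8 to 9.41 CPM for 5 T cell markers, 4.14 to 8.55 for 5 NK cell markers, 123 to 449 for 6 macrophage markers, 31.6 to 140 for 6 neutrophil markers and 17.5 to 567 for 6 erythroid markers.

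Most of the mitochondrial ribosomal protein genes rose with each stimulus, 64 and 62 of the 76 with CpG in Tlr9het and Tlr997 and 42 with CL097, and 9 were called in none of the 3. Of all tested genes, 29.7%, 29.6% and 22.7% were called higher in the 3 stimulations and 28.2%, 26.0% and 23.6% lower. The mean over the 76 genes was 4.36, 4.42 and 4.49 log2 CPM in the 3 unstimulated Tlr9het libraries and 5.31, 5.40 and 5.42 with CpG. It was 4.50, 4.55 and 4.40 in unstimulated Tlr997 and 5.32, 5.34 and 5.37 with CpG. In Tlr779 the mean went from 4.44, 4.62 and 4.55 to 5.10, 5.04 and 5.03 with CL097. No stimulated library overlapped with an unstimulated one, and the unstimulated libraries of the 3 genotypes overlapped with each other. Summed over the 76 genes, the transcripts made up 1885 ± 68 CPM (SD, n = 3) in unstimulated Tlr9het and 3742 ± 161 with CpG, 1972 ± 75 and 3668 ± 64 in Tlr997, and 2035 ± 106 and 2985 ± 87 in Tlr779. A CPM is a share of the library, so a higher share cannot be told apart from less RNA of other kinds, and in bulk samples fewer cells of a type and less RNA per cell cannot be told apart. The sum of the 7 B cell markers was lower with a stimulus, at 1370 to 2740 CPM, and 6, 5 and 6 of them were called lower in the 3 comparisons, while Pax5 was called higher with CpG in Tlr9het (0.54). Of the plasma cell markers Sdc1, Igj, Xbp1, Prdm1 and Irf4, the first 3 fell in every stimulation (Sdc1 by 1.43, 2.02 and 2.49 on the log2 scale), Prdm1 was not called, and Irf4, which activated B cells also express, rose by 1.61, 1.36 and 1.58. Prdm1 was at -0.11 with CpG in Tlr997, but at -0.59 and called lower without replicate 3 of unstimulated Tlr997.

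Markers of other cells moved less evenly. The 5 T cell markers summed to 9.56 to 21.2 CPM with CpG in Tlr9het (3.64 to 9.41 without) and 7.92 to 16.6 in Tlr997 (2.34 to 7.82 without), and to 1.94 to 7.09 with CL097 (1.80 to 5.90 without). In each CpG comparison 1 T cell marker (Cd8a) and 2 NK cell markers (Ncr1 and Gzma) were called higher, the NK cell markers not in Tlr997 without its unstimulated replicate 3, and Klrd1 was called lower in Tlr997. The NK cell markers summed to 2.41 to 11.2 CPM, the macrophage markers to 83.1 to 180, the neutrophil markers to 17.3 to 98.7 and the erythroid markers to 16.6 to 668 CPM in the stimulated libraries. The part of all these markers in the members' values was not tested.

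**Figure D1:**
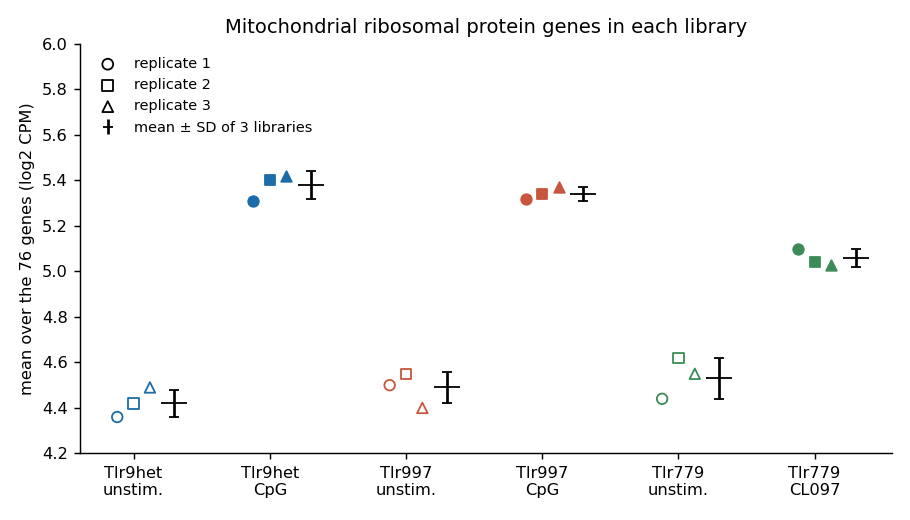
Mean log2 CPM over the 76 mitochondrial ribosomal protein genes in each of the 18 libraries, with the mean and SD of the 3 libraries of a group beside them; open symbols are unstimulated and the axis does not start at 0. The 9 stimulated libraries lie between 5.03 and 5.42, above the 9 unstimulated libraries at 4.36 to 4.62.

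In Tlr9het B cells, CpG raised 64 of the 76 genes and lowered none, at an adjusted p under 0.05 in limma and a log2 fold change past 0.5; the same rule called 29.7% of all 11494 tested genes higher and 28.2% lower. The members' median log2 fold change was 1.01 (quartiles 0.69 and 1.27), where the median of all tested genes was 0.04, and 41 members more than doubled. Paired by replicate number, 72, 70 and 72 members were higher with CpG. Of the lower members, Mrps16 alone had an unadjusted p under 0.05 (0.0105), with a log2 fold change of -0.28.

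The 5 genes that rose most were Mrps6, Mrps28, Mrpl17, Mrpl15 and Mrpl12. Mrps6, a small-subunit protein with a bacterial counterpart, was at 2.59, 3.03 and 2.99 log2 CPM without and 5.08, 5.24 and 5.29 with CpG, a 5.04-fold rise (log2 fold change 2.33, SE 0.13, adjusted p 2.66e-09). Mrps6 shares 159 exon bases with Slc5a3, an inositol transporter gene inside it on the same strand, which itself rose by a log2 fold change of 1.24, so reads from the shared bases cannot be told apart. Mrps28, also of the small subunit, went from 3.06, 3.21 and 3.46 to 5.13, 5.23 and 5.24 (log2 fold change 1.96, SE 0.23, adjusted p 3.26e-06). In both genes each CpG library was far above the highest unstimulated one, although only genes whose groups did not overlap were named here.

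Mrpl17, a large-subunit protein of bacterial descent, was at 4.79, 4.74 and 4.85 log2 CPM before and 6.61, 6.68 and 6.81 after CpG (log2 fold change 1.90, SE 0.15, adjusted p 9.04e-08). Mrpl15, a core protein of the large subunit, went from 4.76, 4.93 and 4.78 to 6.56, 6.74 and 6.64 (log2 fold change 1.82, SE 0.08, adjusted p 1.56e-10). Mrpl12 forms the flexible stalk that recruits translation factors to the large subunit, and went from 5.42, 5.44 and 5.47 to 7.03, 7.06 and 7.08 (log2 fold change 1.61, SE 0.06, adjusted p 4.63e-11). Its SD was 0.03 log2 units in both groups, the smallest of these 5 genes. At the other end of the called genes stood Mrpl28 (log2 fold change 0.55), Mrps21 (0.62), Mrpl9 (0.64), Mrpl45 (0.65) and Mrpl44 (0.65). Libraries that do not overlap between the groups were a condition for naming these genes.

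Promoters are printed for 3 of the genes that rose most in all 3 stimulations (Mrps6, Mrpl17 and Mrpl12) and for the 2 that fell with CL097 (Mrpl49 and Mrps25), so that genes of 1 machine with opposite responses can be set side by side. Each is 300 bases long, 250 before and 50 after the RefSeq transcription start, on build GRCm38.p6 (the mm10 coordinates), in the direction of the gene. Capitals mark every match, on either strand, to the letters of 8 motifs: NRF1 (GCGCATGCG), ETS/GABP (CCGGAAGT), YY1 (AAGATGGCG), E-box (CACGTG), CRE (TGACGTCA), Sp1 (GGGCGG, or CCGCCC on the other strand), the CCAAT box (CCAAT, or ATTGG) and the TATA box (TATAAA). The windows are chr16:92058086-92058385 (+) for Mrps6, chr7:105811038-105811337 (-) for Mrpl17, chr11:120484387-120484686 (+) for Mrpl12, chr19:6057706-6058005 (-) for Mrpl49 and chr6:92183974-92184273 (-) for Mrps25.
Mrps6: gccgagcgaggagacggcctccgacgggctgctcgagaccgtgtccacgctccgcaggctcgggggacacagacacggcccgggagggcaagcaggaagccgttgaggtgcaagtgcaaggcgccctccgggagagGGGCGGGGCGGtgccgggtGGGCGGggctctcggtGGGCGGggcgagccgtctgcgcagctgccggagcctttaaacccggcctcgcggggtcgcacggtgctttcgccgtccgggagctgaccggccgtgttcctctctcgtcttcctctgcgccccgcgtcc
Mrpl17: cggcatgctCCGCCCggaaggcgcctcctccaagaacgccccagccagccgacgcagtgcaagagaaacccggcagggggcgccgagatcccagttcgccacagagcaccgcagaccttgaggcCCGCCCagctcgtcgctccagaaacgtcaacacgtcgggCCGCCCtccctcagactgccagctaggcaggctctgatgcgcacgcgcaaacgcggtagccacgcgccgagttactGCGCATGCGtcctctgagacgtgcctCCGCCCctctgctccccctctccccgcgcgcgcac
Mrpl12: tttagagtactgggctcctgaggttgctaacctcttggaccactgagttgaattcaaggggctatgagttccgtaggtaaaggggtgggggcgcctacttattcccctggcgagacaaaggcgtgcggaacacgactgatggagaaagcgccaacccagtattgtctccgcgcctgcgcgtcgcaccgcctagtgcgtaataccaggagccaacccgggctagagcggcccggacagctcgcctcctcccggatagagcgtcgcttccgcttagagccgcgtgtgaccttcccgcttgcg
Mrpl49: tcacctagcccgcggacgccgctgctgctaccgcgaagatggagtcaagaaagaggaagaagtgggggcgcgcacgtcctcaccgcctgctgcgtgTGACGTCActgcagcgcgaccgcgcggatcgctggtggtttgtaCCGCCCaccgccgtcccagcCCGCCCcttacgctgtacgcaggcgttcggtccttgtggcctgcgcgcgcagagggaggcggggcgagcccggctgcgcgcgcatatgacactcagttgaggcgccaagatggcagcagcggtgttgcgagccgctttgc
Mrps25: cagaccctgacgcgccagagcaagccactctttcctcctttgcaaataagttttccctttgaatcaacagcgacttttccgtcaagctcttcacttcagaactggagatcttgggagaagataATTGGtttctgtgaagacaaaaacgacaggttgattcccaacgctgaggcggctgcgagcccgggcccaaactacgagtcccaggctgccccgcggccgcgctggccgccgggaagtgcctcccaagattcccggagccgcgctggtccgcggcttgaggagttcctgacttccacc

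Mrpl17 held 1 NRF1 match and 4 Sp1 matches, Mrps6 held 4 Sp1 matches, Mrpl49 held 1 CRE and 2 Sp1 matches, Mrps25 held 1 CCAAT box, and none of the 8 was found in the Mrpl12 window. Over all members, the table held 73 promoters of 67 genes. NRF1 letters were in 9.59% of these 73 against 3.74% of the 11703 promoters of tested genes and 1.75% of all 32851, YY1 letters in 11.0% against 3.14% and 1.40%, and ETS/GABP letters in 16.4% against 8.60% and 3.89%. The E-box was in 9.59%, 10.3% and 7.15%, the CRE in 2.74%, 3.04% and 1.79%, Sp1 in 52.1%, 61.9% and 35.7%, the CCAAT box in 41.1%, 37.9% and 37.4%, and the TATA box in 6.85%, 7.23% and 13.6%. The letters of no motif contain those of another. Among promoters of members that rose in all 3 stimulations, 4 of 38 held NRF1, 4 YY1, 3 ETS/GABP and 5 E-box letters, and among the 13 of members that rose in none the counts were 1, 0, 4 and 1. Some windows of 1 gene overlap, and counted by gene these were 4, 4, 3 and 3 of 36 genes and 1, 0, 4 and 1 of 9. These are counts of letters, and binding was not measured.

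In Tlr997 B cells, whose TLR9 signals through the TIR domain of TLR7, CpG raised 62 of the 76 genes and lowered none, where 29.6% of the 11494 tested genes were called higher and 26.0% lower. The median log2 fold change was 0.91 (quartiles 0.59 and 1.18), against 0.07 over all tested genes, and 35 members more than doubled. Paired by replicate number, 70, 70 and 70 of the 76 members were higher with CpG, and these were not the same genes in each pair. Without replicate 3 of unstimulated Tlr997, 59 members were called higher and 1, Mrps25, lower. Among the lower members, Mrps16, Mrpl18, Mrpl4 and Mrps25 had an unadjusted p under 0.05 in the fit of all libraries.

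The genes with the largest rise were again Mrps6, Mrpl17, Mrps28, Mrpl15 and Mrpl12. Mrps6 went from 2.85, 3.20 and 3.04 to 5.08, 5.05 and 5.04 log2 CPM (log2 fold change 2.03, SE 0.13, adjusted p 1.31e-08), and Slc5a3 rose by 1.27. Mrpl17 went from 4.82, 5.15 and 4.30 to 6.59, 6.67 and 6.74 (log2 fold change 1.91, SE 0.15, adjusted p 9.90e-08). Mrps28 went from 3.72, 3.72 and 2.65 to 5.18, 5.05 and 5.13 (log2 fold change 1.75, SE 0.23, adjusted p 1.05e-05). For both of these, replicate 3 was the lowest unstimulated library, and without it the log2 fold changes were 1.68 for Mrpl17 and 1.40 for Mrps28.

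Mrpl15 rose by a log2 fold change of 1.58 (SE 0.08) and Mrpl12 by 1.58 (SE 0.06) in Tlr997, with adjusted p of 7.64e-10 and 8.09e-11. The smallest called rises were Mrpl44 (log2 fold change 0.51), Mrpl51 (0.54), Mrpl52 (0.55), Mrpl39 (0.56) and Mrpl53 (0.57). Mrpl39 was at 5.00, 5.07 and 4.61 before and 5.42, 5.40 and 5.55 after CpG, so the separation of the groups was narrow, and it fell short of the fold threshold without replicate 3 (0.42), as Mrpl51 did (0.50). Mrpl53 lies on the same strand as Gm42688, which shares 695 exon bases with it and was not tested.

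**Figure D2:**
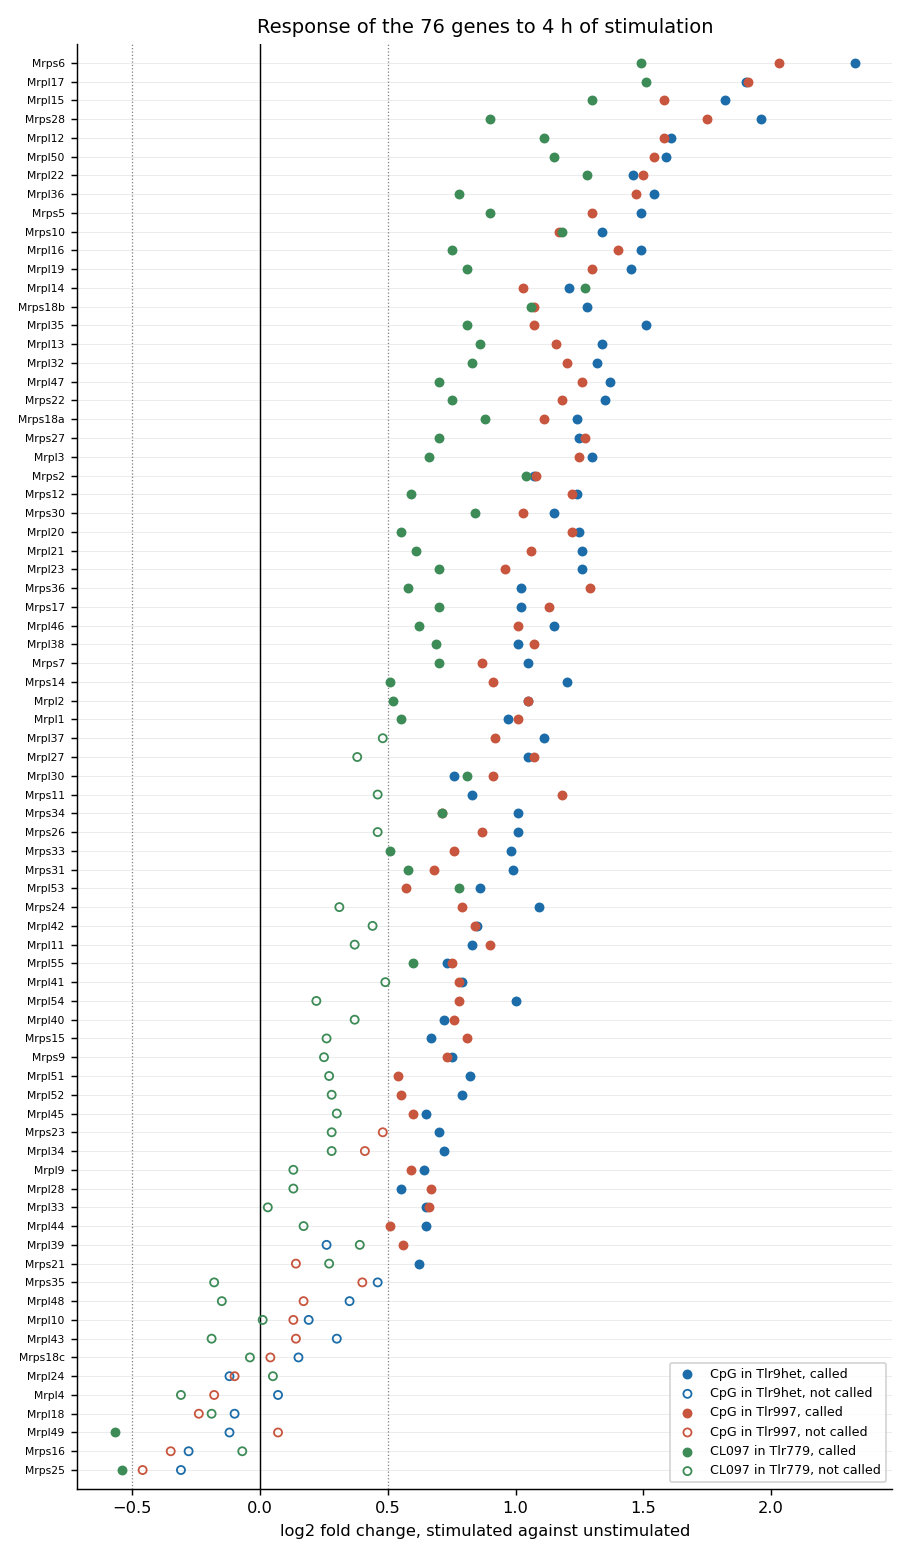
Log2 fold change of each of the 76 genes (rows, ordered by their mean) in the 3 stimulation comparisons; filled points were called at an adjusted p under 0.05 and a log2 fold change past 0.5 (dotted lines). Mrps6 leads at 2.33, 2.03 and 1.49, and Mrps25 closes the order at -0.31, -0.46 and -0.54.

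In Tlr779 B cells, whose TLR7 signals through the TIR domain of TLR9, CL097 raised 42 of the 76 genes and lowered 2, where 22.7% of the 11082 tested genes were called higher and 23.6% lower. The median log2 fold change was 0.55 (quartiles 0.27 and 0.79) against -0.02 over all tested genes, and 10 members more than doubled. By replicate number, 69, 64 and 62 members were higher with CL097, with median differences of 0.78, 0.41 and 0.47 log2 units. These values stand beside those of the CpG comparisons and were not compared with them by a test.

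Mrpl17 led with 4.96, 4.92 and 4.86 log2 CPM before and 6.52, 6.35 and 6.42 after CL097 (log2 fold change 1.51, SE 0.08, adjusted p 5.46e-06). Mrps6 went from 3.18, 3.15 and 3.04 to 4.78, 4.49 and 4.59 (log2 fold change 1.49, SE 0.12, adjusted p 2.93e-05), and Slc5a3 rose by 0.81. Mrpl15 rose by a log2 fold change of 1.30 and Mrpl22, which lines the tunnel where the new chain leaves the ribosome, went from 3.91, 4.09 and 3.99 to 5.32, 5.18 and 5.34 (log2 fold change 1.28, SE 0.10, adjusted p 2.19e-05). Mrpl14, which sits where the subunits meet, went from 2.30, 2.94 and 2.46 to 4.09, 3.77 and 3.66 (log2 fold change 1.27, SE 0.21, adjusted p 0.000977). In each of these genes the lowest CL097 library was above the highest unstimulated one, which was a condition for naming them. Mrpl14 shares 106 exon bases with Tmem63b, a gene on the opposite strand that rose by 1.82 on the log2 scale with CL097. Reads from the shared bases may not have been told apart.

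The 2 genes that fell were Mrpl49 and Mrps25, both mitochondria-specific proteins. Mrpl49 was at 5.12, 5.14 and 5.48 log2 CPM before and 4.68, 4.61 and 4.76 after CL097 (log2 fold change -0.57, SE 0.12, adjusted p 0.00364). Mrps25 was at 3.38, 3.91 and 3.31 before and 2.84, 3.02 and 3.12 after (log2 fold change -0.54, SE 0.19, adjusted p 0.0398). Both overlap a gene on the opposite strand. The paper names a stranded library kit, but with the strand setting of the counting unknown the reads of such pairs may not have been told apart. Mrps25 shares 4590 exon bases with Nr2c2, a nuclear receptor gene that was called lower in the 3 stimulations (-1.10, -0.86 and -0.94), and Mrpl49 shares 91 with Syvn1, a ubiquitin ligase gene that was also called lower (-1.48, -1.19 and -1.19). The groups did not overlap in either gene, which was a condition for naming them, and the calls were close to their limits. Mrpl49 had a log2 fold change of -0.45 without replicate 3 of unstimulated Tlr779, and the call of Mrps25 was lost when any of 4 libraries (replicates 1 and 2 of either group) was left out (log2 fold changes -0.35 to -0.62, adjusted p 0.0568 to 0.121) and with no filter on low values (adjusted p 0.139). With CpG, Mrps25 was at -0.31 in Tlr9het and -0.46 in Tlr997 and was called in neither. The smallest called rises were Mrps14 (0.51), Mrps33 (0.51) and Mrpl2 (0.52).

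Over the 3 stimulations, 42 of the 76 genes (55.3%) were called higher in each, against 19.0% of the 11012 genes tested in both models. Averaged over the 3 comparisons their log2 fold changes ran from 0.69 for Mrpl55 to 1.95 for Mrps6. Besides the genes described, Mrpl50 rose by 1.59, 1.54 and 1.15, Mrpl36 by 1.54, 1.47 and 0.78, and Mrps12, which lies at the decoding site of the small subunit, by 1.24, 1.22 (0.90 without replicate 3 of unstimulated Tlr997) and 0.59. Mrpl36 shares 30 exon bases with Ndufs6, a gene on the opposite strand that rose by 1.06, 0.81 and 0.73. A further 19 rose with CpG in both genotypes but were not called with CL097, among them Mrpl37, Mrps11, Mrps26, Mrpl11, Mrpl41, Mrpl54, Mrps9 and Mrps15. Mrpl27, Mrps11, Mrps26 and Mrpl23 rose by 1.07, 1.18, 0.87 and 0.96 in Tlr997, and by 0.76, 0.90, 0.66 and 0.76 without that library. Mrps21, Mrps23 and Mrpl34 were called in Tlr9het only and Mrpl39 in Tlr997 only, which does not show that the genotypes differ. Without replicate 3 of unstimulated Tlr997, Mrps23 was called higher in Tlr997 as well (0.59). No gene was called in opposite directions.

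The 9 genes called in no stimulation were Mrpl4, Mrpl10, Mrpl18, Mrpl24, Mrpl43, Mrpl48, Mrps16, Mrps18c and Mrps35. Mrpl10, which anchors the Mrpl12 stalk to the large subunit, was at 5.81, 5.98 and 6.04 log2 CPM in unstimulated Tlr9het and 6.10, 6.16 and 6.15 with CpG (log2 fold change 0.19, SE 0.07), where Mrpl12 rose 3.05-fold in the same libraries. Mrps35 came closest to a call, at 0.46 and 0.40 with CpG and -0.18 with CL097. Mrps16 was at -0.28, -0.35 and -0.07, and Mrpl18, which belongs to the central protuberance of the large subunit, was at -0.10, -0.24 and -0.19.

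**Figure D3:**
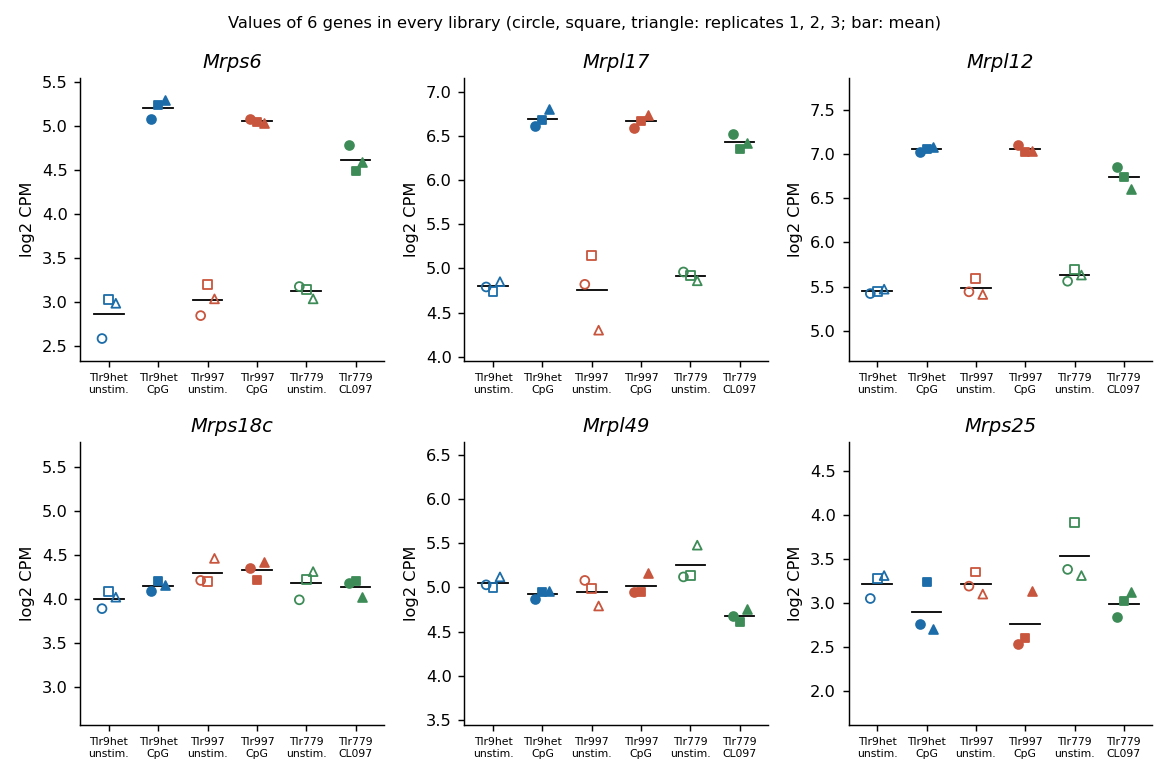
Log2 CPM of 6 genes in every library, by group, with a bar at the mean of 3; the axes span equal ranges and do not start at 0. Mrps6, Mrpl17 and Mrpl12 separate by stimulation in all 3 genotypes, Mrps18c separates narrowly in Tlr9het and overlaps in the other two, and Mrpl49 and Mrps25 are lower in the 3 CL097 libraries than in the 3 unstimulated Tlr779 libraries.

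Genes of both subunits rose. Of all tested genes, 29.7%, 29.6% and 22.7% were called higher in the 3 stimulations and 28.2%, 26.0% and 23.6% lower. Sorted by where the protein sits, 41 of 49 large-subunit genes and 22 of 26 small-subunit genes rose with CpG in Tlr9het, with medians of 1.00 and 1.01. In Tlr997 the counts were 41 and 20 with medians of 0.92 and 0.87, and with CL097 they were 26 and 15 with medians of 0.55 and 0.54. Among the 46 genes whose products have bacterial counterparts, 40, 38 and 29 rose in the 3 comparisons (medians 1.08, 1.05 and 0.61), and among the 29 mitochondria-specific genes 23, 23 and 12 rose (0.86, 0.76 and 0.46). Both genes that fell with CL097 were of the second kind. The difference between these classes was not tested.

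The 3 Mrps18 genes encode related proteins that occupy different sites, Mrps18b and Mrps18c in the small subunit and Mrps18a in the large. Mrps18a went from 4.16, 4.02 and 4.24 log2 CPM to 5.28, 5.38 and 5.47 with CpG in Tlr9het, and its log2 fold changes in the 3 stimulations were 1.24, 1.11 and 0.88. Mrps18b rose by 1.28, 1.07 and 1.06. Mrps18c stayed between 3.89 and 4.46 log2 CPM in all 18 libraries, with log2 fold changes of 0.15, 0.04 and -0.04 (SE 0.11, 0.11 and 0.12), the last 2 of which changed sign when 1 library was left out.

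Symbols and places disagree for 2 further genes. Mrps30 carries a small-subunit name but sits in the large subunit, and rose by 1.15, 1.03 and 0.84. Mrps36 is now known as a subunit of the oxoglutarate dehydrogenase complex of the citric acid cycle rather than of the ribosome. It went from 2.79, 2.54 and 2.78 to 3.60, 3.67 and 3.90 log2 CPM with CpG in Tlr9het (log2 fold change 1.02), and from 2.64, 3.23 and 1.87 to 3.91, 3.87 and 3.82 in Tlr997 (1.29, or 0.93 without replicate 3 of unstimulated Tlr997). With CL097 it rose by 0.58 (adjusted p 0.0168).

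Whether the exchanged TIR domain altered these genes was asked by comparing Tlr997 with Tlr9het, and no member was called by limma in any of the 3 comparisons made. In unstimulated cells 0 of 76 were called, 8 of 76 had an unadjusted p under 0.05 (1237 of all 11494 genes), and the rule called 0.0174% of all genes higher and 0% lower. The members' log2 differences ran from -0.24 to 0.38 with a median of 0.05. With CpG in both, 0 of 76 were called and 4 had an unadjusted p under 0.05 (2187 of all genes), against 1.25% of all genes called higher and 1.47% lower, and the differences ran from -0.28 to 0.33 with a median of -0.03.

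The difference between the CpG responses was also tested directly. None of the 76 was called in limma, 5 had an unadjusted p under 0.05 (1839 of all genes), and 0.687% of all genes were called higher and 0.853% lower. The differences, Tlr997 minus Tlr9het, ran from -0.47 to 0.35 with a median of -0.11, where that of all tested genes was 0.01, and 56 of the 76 were below 0. For the best-measured genes the limits were narrow, as for Mrpl12 (-0.03, SE 0.08), and for Mrps28 they were wide (-0.20, SE 0.32).

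The genes with the lowest p in each of these comparisons were not called. Mrpl35 was at 4.24, 4.12 and 4.39 log2 CPM in unstimulated Tlr9het and 4.67, 4.56 and 4.66 in unstimulated Tlr997, a difference of 0.38 (SE 0.08, adjusted p 0.295). With CpG it was at 5.67, 5.80 and 5.80 and at 5.67, 5.71 and 5.72, so its CpG response was 1.51 in Tlr9het and 1.07 in Tlr997, a difference of -0.44 (adjusted p 0.0817). Without replicate 3 of unstimulated Tlr9het that difference was -0.51 with an adjusted p of 0.0398. Mrps21 responded by 0.62 in Tlr9het and 0.14 in Tlr997, a difference of -0.47 (adjusted p 0.121), and Mrps24 differed by 0.31 in unstimulated cells (adjusted p 0.383).

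With CpG, Mrpl4 was at 5.35, 5.34 and 5.43 in Tlr9het and at 5.10, 5.10 and 5.12 in Tlr997, a difference of -0.27 that passed the adjusted p (0.0417) but not the fold threshold. Mrpl30 was at 6.32, 6.48 and 6.59 in Tlr9het and 6.85, 6.89 and 6.63 in Tlr997, a difference of 0.33 (adjusted p 0.0673). The 3 libraries of each group did not overlap in either gene.

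**Figure D4:**
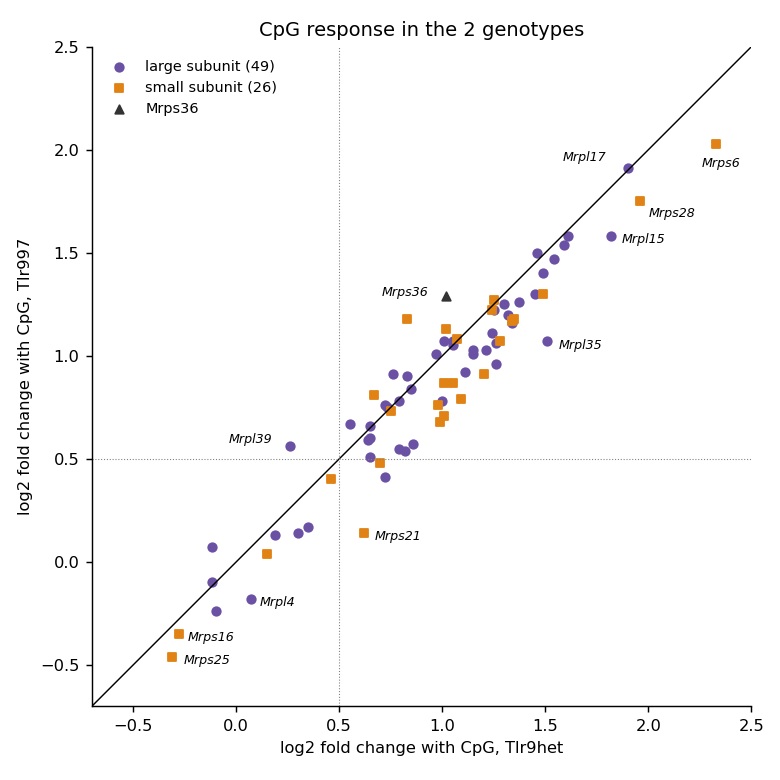
Log2 fold change with CpG in Tlr9het (horizontal) and in Tlr997 (vertical) for the 76 genes, which come from different libraries; the line marks equal responses, the dotted lines a log2 fold change of 0.5, and symbols give the subunit. Below the line lie 56 of the 76 points, a count that was not tested, and Mrpl35, Mrps21 and Mrpl39 are among those farthest from it.

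Genes of mitoribosome proteins with other names were counted separately, beside the share of all tested genes called. That share was 29.7%, 29.6% and 22.7% higher and 28.2%, 26.0% and 23.6% lower in the 3 stimulations. Of 7 (Dap3, Ptcd3, Chchd1, Aurkaip1, Gadd45gip1, Ict1 and Mrp63), 5 rose with CpG in Tlr9het, 4 in Tlr997 and 4 with CL097. Ptcd3 rose by 1.04, 1.15 and 1.17. Of 26 assembly factors, 17, 16 and 8 rose and 2, 1 and 0 fell (medians 0.67, 0.64 and 0.15). Noa1, a GTPase of small-subunit assembly, went from 4.08, 4.24 and 4.27 to 6.20, 6.31 and 6.33 log2 CPM with CpG in Tlr9het, and rose by 2.08, 1.81 and 1.20 on the log2 scale in the 3 stimulations. Rnmtl1, which methylates the large ribosomal RNA, rose by 1.85, 1.82 and 1.07, and the GTPase Gtpbp10 by 1.59, 1.28 and 1.39.

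Of 17 mitochondrial translation factors, 10, 10 and 8 rose and 1, 1 and 2 fell. Beside the counts in this paragraph, 29.7%, 29.6% and 22.7% of all tested genes rose and 28.2%, 26.0% and 23.6% fell. The elongation factor Tsfm rose by 1.55, 1.28 and 1.11, and Slirp, which stabilizes mitochondrial mRNAs with Lrpprc, by 1.55, 1.46 and 1.32. Oxa1l, the insertase that places new chains in the inner membrane and docks the ribosome there, moved the other way, from 6.44, 6.40 and 6.47 to 5.20, 5.22 and 5.37 log2 CPM with CpG in Tlr9het, and its log2 fold changes were -1.17, -0.99 and -0.73, each called lower. Of 9 genes of mitochondrial transcription and DNA replication, 4, 4 and 3 rose and 3, 2 and 1 fell, with Tefm, a transcription elongation factor, at 1.69, 1.71 and 1.20 and Peo1, the Twinkle helicase, at 1.56, 1.22 (1.50 without replicate 3 of unstimulated Tlr997) and 1.20. The 15 mitochondrially encoded genes of the list were not analysed here.

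Among 9 regulators of mitochondrial gene expression, Myc went from 8.23, 7.96 and 8.16 to 10.89, 10.80 and 10.96 log2 CPM with CpG in Tlr9het, and its log2 fold changes were 2.77, 2.39 and 2.56. Pprc1, Gabpb1 and Ppargc1b also rose in all 3 stimulations (Pprc1 by 1.45, 1.53 and 1.41, Gabpb1 by 1.23, 0.89 and 0.71, and Ppargc1b by 1.10, 1.49 and 0.76). Nrf1 rose with CpG (0.63 and 0.56) and was at 0.19 with CL097. Without replicate 3 of unstimulated Tlr997, Ppargc1b rose by 1.05 there and Nrf1, at 0.50, was not called. The coactivator Ppargc1a, at 0.61 to 2.31 log2 CPM in the unstimulated libraries, fell by 2.99, 3.00 (2.60 without that library) and 0.98 on the log2 scale, and Gabpa, Esrra and Yy1 were called in none of the 3. None of the genes in these lists was called in a comparison of the genotypes.

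Few genes of cytosolic ribosomal proteins were called. Of 74 tested, 4 rose and 5 fell with CpG in Tlr9het, 4 rose and 6 fell in Tlr997, and 3 rose with CL097, with medians of -0.22, -0.24 and -0.09. The risers included Rpl34 (1.95, 2.03 and 1.29) and Rpl30 (1.69, 1.85 and 1.84, the second 1.23 without replicate 3 of unstimulated Tlr997). Without that library 3 rose and 10 fell in Tlr997. The nuclear subunits of respiratory complex I, whose mitochondrial partners the mitoribosome makes, had medians of 0.31, 0.18 and 0.01. These lay between the medians of the mitochondrial and the cytosolic ribosomal protein genes. Of the 35 subunits tested, 12, 10 and 5 were called higher and 3, 5 and 3 lower. The same rule called 29.7%, 29.6% and 22.7% of all tested genes higher and 28.2%, 26.0% and 23.6% lower. The differences between lists were not tested.

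**Figure D5:**
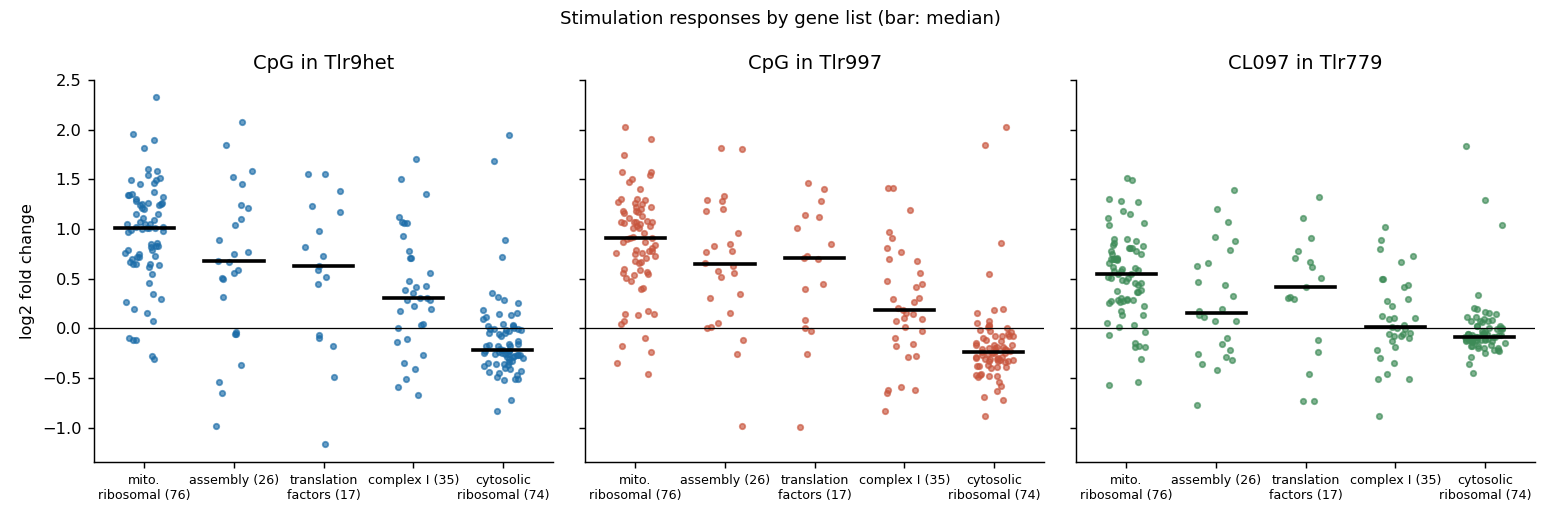
Log2 fold change of every tested gene of 5 lists in the 3 stimulation comparisons, with a bar at the median of the list. The medians of the mitochondrial ribosomal protein genes are 1.01, 0.91 and 0.55 and those of the cytosolic ribosomal protein genes -0.22, -0.24 and -0.09.

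The 76 genes are spread over 17 chromosomes in RefSeq GRCm38.p6, from 10 on chromosome 11 and 8 on chromosome 17 down to 1 on chromosome 15. In the GENCODE M21 annotation 23 of them share exon bases with another protein-coding gene, 4 of them on the same strand: Mrps6, Mrpl53, Mrps24 (226 bases with Urgcp) and Mrps34 (763 bases with Nme3). Nme3 fell by 1.20 and 0.73 on the log2 scale with CpG and was at -0.33 with CL097, while Mrps34 was called higher at 1.01, 0.71 and 0.71. GENCODE M21 also lists 5 pseudogenes named after members, of Mrpl23, Mrpl48 and Mrps36. Reads that fit both copies make the values of those genes uncertain.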

How the data were processed

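RNA-seq was made from 18 libraries of splenic B cells. The authors trimmed (Trim Galore 0.6.5), aligned to mm10 with STAR 2.6.1a and counted with featureCounts of Subread 2.0.1 (tools and versions from the submitters' processing notes), then applied quantile normalization and voom, and deposited log2 CPM values per gene. The counts and the read depth are not given in these files, so precision rests on the 3 replicates. The paper names a stranded library kit, but the strand setting of the counting is not given in the sources used here. The deposited values carry a replicate-wise offset: of 6614 genes below -4 in all 12 Tlr7-/- libraries, 6306 held 1 value per replicate number, and 822 of these differed between numbers. Whether a replicate-number effect had been removed before deposit is not stated. The tests make no allowance for such a step, so their p-values may be too small and the calls too many.

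From these values, genes with at least 3 libraries over 0 log2 CPM were fitted with limma 3.58.1 (R 4.3.3; lmFit, contrasts.fit, eBayes with a trend), 12 Tlr7-/- libraries in 1 model and 6 Tlr779 libraries in another. P-values are two-sided with Benjamini-Hochberg adjustment over all tested genes, and calls needed an adjusted p under 0.05 together with a change of more than 0.5 log2 units. The method was tested on simulated data. Genes named are, for each stimulation, the 5 called members that changed most and the 5 that changed least upward or fell, among those whose libraries do not overlap between the groups, the 2 of lowest p where none is called, the Mrps18 genes, Mrps30 and Mrps36, the regulators, and listed genes called in all 3 stimulations with a log2 fold change past 1; other names were chosen after their values were seen. The members and lists were chosen with earlier results of these data known. A gene of the B cell marker list is not reported here, and the sums are over the other 7.

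Same-numbered unstimulated and stimulated libraries deviated together in Tlr9het (correlations 0.513, 0.287 and 0.509 over 11494 genes) and Tlr779 (0.205, 0.421 and 0.285), but in Tlr997 they were at 0.373, 0.0826 and 0.0248. The main model had no block and the block was an alternative. Positions and promoters are from RefSeq GRCm38.p6, where all 76 symbols matched.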

Additional observations from a re-analysis of the deposited data

How the results depend on the processing

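The counts of members called higher stayed within 1.5 times the main value under every alternative except the stricter fold threshold. A log2 fold change over 1 left 41 (CpG in Tlr9het), 35 (CpG in Tlr997) and 10 (CL097) members higher and 0 lower with CL097. With no fold threshold, 1 member was lower with CpG in Tlr9het (Mrps16), 3 in Tlr997 (Mrps16, Mrpl18 and Mrpl4), 3 with CL097 (Mrpl49, Mrps25 and Mrpl4), and 1 in Tlr997 against Tlr9het with CpG (Mrpl4). With array quality weights 1 member (Mrps25) was lower with CpG in Tlr997. With no filter on low values, and with 1 CPM added before the log2, 1 member (Mrpl49) was lower with CL097. With the replicate number as a block, 64, 62 and 44 members were called in the 3 stimulations, the same genes as without it, and 0 in the comparisons of genotypes; a block within each genotype, chosen after seeing the data, left every one of these counts within 1.5 times as well.

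Leaving out each library in turn gave 64 to 64 members higher and 0 to 0 lower with CpG in Tlr9het, 59 to 63 higher and 0 to 1 lower with CpG in Tlr997 (Mrps25, without replicate 3 of either Tlr997 group), and 37 to 45 higher and 1 to 2 lower with CL097. It gave 0 called in Tlr997 against Tlr9het and 0 to 1 lower for the difference of responses (Mrpl35, without replicate 3 of unstimulated Tlr9het). Mrps18c, never called, ranged from 0 to 0.13 with CpG in Tlr997 and from -0.13 to 0.03 with CL097 when single libraries were left out, and was at 0.01 with CL097 under array quality weights, so its sign is not settled.

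With 3 libraries a group and no counts, small calls near the fold threshold are fragile. Under at least 1 alternative other than the stricter fold threshold, Mrpl28 in Tlr9het fell short of a call. So did Mrpl9, Mrpl39, Mrpl44, Mrpl45, Mrpl51, Mrpl52 and Mrpl53 in Tlr997, and Mrpl2, Mrpl49, Mrps14, Mrps25, Mrps33 and Mrps36 with CL097. This list is not complete. Only the members named for a comparison were followed through every alternative, and other members also lost their call when 1 library was left out with CL097. The cause of the lost calls was not tested. The scaling alternatives moved the median of all genes to at most 0.07.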

Other observations

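Several members share a start region with a neighbour. In GENCODE M21, 17 of the 76 genes (22.4%) have a protein-coding gene that starts within 1000 bases in the opposite direction, against 11.0% of 11054 tested genes. Of 16 such partners tested, 6 rose and 4 fell with CpG in Tlr9het, 5 and 5 in Tlr997, and 4 and 3 with CL097. Over all tested genes, 29.7% rose and 28.2% fell with CpG in Tlr9het, 29.6% and 26.0% in Tlr997, and 22.7% and 23.6% with CL097. Members and partners did not always move alike. Mrpl2 rose by log2 fold changes of 1.05, 1.05 and 0.52 in the 3 stimulations, while Klc4, a kinesin light chain gene that starts 207 bases away, fell by 1.73, 1.44 and 1.08 on the log2 scale. Mrpl51 rose with CpG (0.82 and 0.54) and its partner Ncapd2, a condensin subunit gene 100 bases away, fell by 1.07 and 1.01. Mrps34 and its partner Eme2 rose together (Eme2 by 1.44, 1.47 and 1.20), as did Mrps5 and Zfp661 (Zfp661 by 1.15, 1.50 and 1.00). Mrpl49, which fell with CL097, starts 59 bases from Fau, a cytosolic ribosomal protein gene, which was at -0.47, -0.51 and -0.20 and was called lower in Tlr997. These pairs were chosen after their values were seen.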
